A study of Mus musculus with 4 samples.

Results

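Mitochondrial ribosomal protein genes are described here from RNA-seq of Mnk3 cells, a mouse line with features of group 3 innate lymphoid cells (ILC3), tissue lymphocytes known for making IL-22. Members are the protein-coding genes of GENCODE release M21 whose symbol is Mrpl or Mrps followed by a digit and whose counts sum to at least 100 over the 4 libraries. Of 77 genes with such symbols, 75 met the count minimum, out of 41388 genes listed in the count tables. By symbol, 47 belong to the large subunit (Mrpl) and 28 to the small subunit (Mrps). The 2 stimulated libraries came from cells given IL-1b and IL-23, cytokines that activate these lymphocytes, at 10 ng/ml each for about 16 h. The 2 control libraries came from Mnk3 cells left without cytokines. All 4 libraries were made from total RNA depleted of ribosomal RNA. In each group library 1 has rep1 in its title and library 2 has no number there. The labels name no separate cultures, so p-values cover only library-to-library spread, some or all of it possibly technical.

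The mitochondrial ribosome makes the few proteins that the mitochondrial genome encodes, nearly all of them core subunits of the respiratory chain and the ATP synthase. Its ribosomal RNAs come from mitochondrial DNA, whereas every protein of it is encoded in the nucleus, made in the cytosol and imported. Some of these proteins have homologues in the bacterial ribosome, and others were added in the course of mitochondrial evolution. Activated T cells are known to depend on mitochondrial translation for their respiratory capacity.

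The promoters of 5 members are shown because they hold motifs named for factors known to act on nuclear genes for mitochondrial proteins, and because these members differ in their response. Each run is 300 bases from RefSeq on build GRCm38.p6, from 250 bases before the gene's start to 50 after it, written 5′ to 3′ on the gene's strand. Capitals mark the motif, and positions give its first letter counted from 0 at the start. Mrpl32 (chr13:14612988-14613287, minus strand) and Mrpl9 (chr3:94443086-94443385, plus strand) hold the full NRF1 palindrome, GCGCA followed directly by its reverse complement TGCGC, at positions -87 and -28 from the start. Mrpl17 (chr7:105811038-105811337, minus strand) holds CCGGAAG, the core bound by ETS factors such as GABP, at -237 and a looser NRF1 pattern, GCGC, any base and TGCGC, on the opposite strand at -49. Mrps22 (chr9:98601630-98601929, minus strand) holds CCGGAAG at -11. Mrpl42 (chr10:95501900-95502199, minus strand) holds AAGATGGCG, the YY1 motif, at 27. A match describes letters in a window and is neither a bound site nor a cause.
Mrpl32: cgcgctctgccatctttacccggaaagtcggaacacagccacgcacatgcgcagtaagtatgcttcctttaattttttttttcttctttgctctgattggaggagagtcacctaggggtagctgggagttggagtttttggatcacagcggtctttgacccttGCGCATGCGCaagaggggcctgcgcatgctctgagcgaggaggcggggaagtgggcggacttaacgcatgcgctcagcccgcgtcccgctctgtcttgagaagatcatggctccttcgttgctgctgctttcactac
Mrpl9: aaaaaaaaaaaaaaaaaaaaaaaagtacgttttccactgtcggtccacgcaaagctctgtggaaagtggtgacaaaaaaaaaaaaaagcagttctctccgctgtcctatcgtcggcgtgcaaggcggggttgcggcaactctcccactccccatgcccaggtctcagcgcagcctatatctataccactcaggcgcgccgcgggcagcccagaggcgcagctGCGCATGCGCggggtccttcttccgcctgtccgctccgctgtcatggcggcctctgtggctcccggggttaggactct
Mrpl17: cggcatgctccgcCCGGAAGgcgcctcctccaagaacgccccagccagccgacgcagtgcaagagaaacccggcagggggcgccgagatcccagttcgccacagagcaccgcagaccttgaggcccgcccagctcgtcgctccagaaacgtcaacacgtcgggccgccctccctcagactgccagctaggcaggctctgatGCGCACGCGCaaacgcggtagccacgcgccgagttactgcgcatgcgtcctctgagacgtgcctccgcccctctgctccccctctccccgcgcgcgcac
Mrps22: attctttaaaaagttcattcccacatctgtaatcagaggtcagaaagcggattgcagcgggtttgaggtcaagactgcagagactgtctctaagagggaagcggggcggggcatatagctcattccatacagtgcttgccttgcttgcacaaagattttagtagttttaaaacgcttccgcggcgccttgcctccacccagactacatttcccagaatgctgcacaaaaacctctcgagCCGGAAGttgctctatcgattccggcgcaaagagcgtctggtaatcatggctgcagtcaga
Mrpl42: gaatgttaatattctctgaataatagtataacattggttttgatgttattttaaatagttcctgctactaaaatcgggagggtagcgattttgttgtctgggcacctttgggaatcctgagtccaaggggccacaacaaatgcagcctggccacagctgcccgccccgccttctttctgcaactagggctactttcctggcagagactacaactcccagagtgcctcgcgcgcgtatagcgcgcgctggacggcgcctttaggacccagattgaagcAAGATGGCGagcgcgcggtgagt

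Of these 5 genes, Mrpl17, Mrpl42, Mrps22 and Mrpl32 rose in stimulated cells and Mrpl9 did not pass the test. The full palindrome was found in 3 members, Mrpl32, Mrpl9 and Mrpl39, the last at position -125. Mrpl39 rose by 0.72 ± 0.13 (edgeR adjusted p = 0.00696). The part of the motifs in these changes was not tested. RefSeq promoters were found for 66 members, 72 windows in all. The looser NRF1 pattern was in 18.1% of the member windows, against 9.88% of the windows of all tested genes and 4.60% of all 32851 windows in the table. CCGGAAG was in 31.9% of the member windows, against 17.8% and 8.86%. AAGATGGCG was in 11.1%, against 2.99% and 1.40%, and the full palindrome, which lies inside the looser pattern, was in 4.17%, against 2.13% and 0.971%. CACGTG, the E-box that Myc and Max bind, was in 9.72%, against 9.70% and 7.15%. Its 7 member windows belong to 5 members, since overlapping windows of Mrpl2 hold the same site. Both strands were searched.

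Summed counts were 26723058 and 23047723 in stimulated 1 and 2, against 29078765 and 28516816 in control 1 and 2. Log expression correlated across genes at 0.990 between libraries of a group and at 0.939 to 0.952 across groups, taken over genes, which are no independent replicates. All 10 markers listed for group 3 innate lymphoid cells had counts enough to be tested, and they went both ways: Il22, Il17f and Id2 rose by 8.81, 7.71 and 0.60, while Kit, Il23r and Il1r1 fell, with changes of -2.01, -1.03 and -3.07. The other 4, Thy1, Ahr, Ccr6 and Il7r, did not pass. Of these, Il7r had 12.2 and 40 CPM in stimulated cells, against 158 and 283 CPM in control cells. Its change was -3.08 ± 0.79 (edgeR adjusted p = 0.0654), and it was called lower with DESeq2 (adjusted p 0.00175) and with limma-voom (0.00647). Summed levels were 12 to 16 CPM in stimulated cells, against 19.6 to 24 CPM in control cells, for 6 T cell markers, and 1.66 to 1.93 CPM, against 3.12 to 3.79 CPM, for 5 B cell markers. Among the T cell markers Trac fell, with 6 and 9 counts in stimulated cells, against 125 and 252 counts in control cells. Its change was -4.33 ± 0.51 (edgeR adjusted p = 0.00151), and the other 3 T cell markers that were tested did not pass. Of these, Cd3d had 14.5 and 11.1 CPM in stimulated cells, against 18 and 9.77 CPM in control cells. For 5 myeloid markers summed levels were 2.22 to 9.37 CPM, against 0.962 to 2.12 CPM, and for 4 epithelial markers 0.306 to 0.396 CPM, against 1.02 to 1.39 CPM. The myeloid marker Adgre1 rose by 7.02 ± 1.32 (edgeR adjusted p = 0.0161), at 1.74 and 8.19 CPM, against 0.0664 and 0 CPM. The epithelial marker Krt8 fell (change -2.10 ± 0.44, edgeR adjusted p = 0.0108). Of the B cell markers, Cd79b fell (change -1.47 ± 0.39, edgeR adjusted p = 0.0265), a call lost with DESeq2 (0.0526). Pax5 went the other way, with 19 and 7 counts in stimulated cells, against 0 and 1 counts in control cells, too few for the filter on low counts. Cd8b1, Cd14 and Lyz2 had no count in any library. The part of these markers in the results was not tested.

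Mitochondrial ribosomal protein genes were higher in stimulated cells almost throughout, in both subunits and to a similar extent. CPM here are counts scaled for library size by TMM, and a change is the log2 ratio of stimulated to control cells, given with its standard error (SE). All 75 members passed the filter on low counts. At an edgeR adjusted p under 0.05, 59 members rose, 78.7% of them, against 17.5% of the 13838 genes tested. None fell, against 18.3% of all tested genes, and none was lower at an unadjusted p under 0.05 or by DESeq2 or limma-voom. The other 16 did not pass. The median change of the members was 0.79 with quartiles of 0.63 and 0.97, whereas all tested genes had a median of -0.02 with quartiles of -0.52 and 0.45. Both stimulated libraries lay above both controls for 70 members and for 34.4% of all tested genes. The groups overlapped for 5 members, Mrpl4, Mrpl12, Mrpl14, Mrpl23 and Mrps21, named here after their values were seen. Changes were moderate: 15 members passed with a change of at least 1, 20% of the members, against 7.73% of all tested genes. Without stimulated 1 the number that rose was 41, and without control 2 it was 44.

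**Figure D1:**
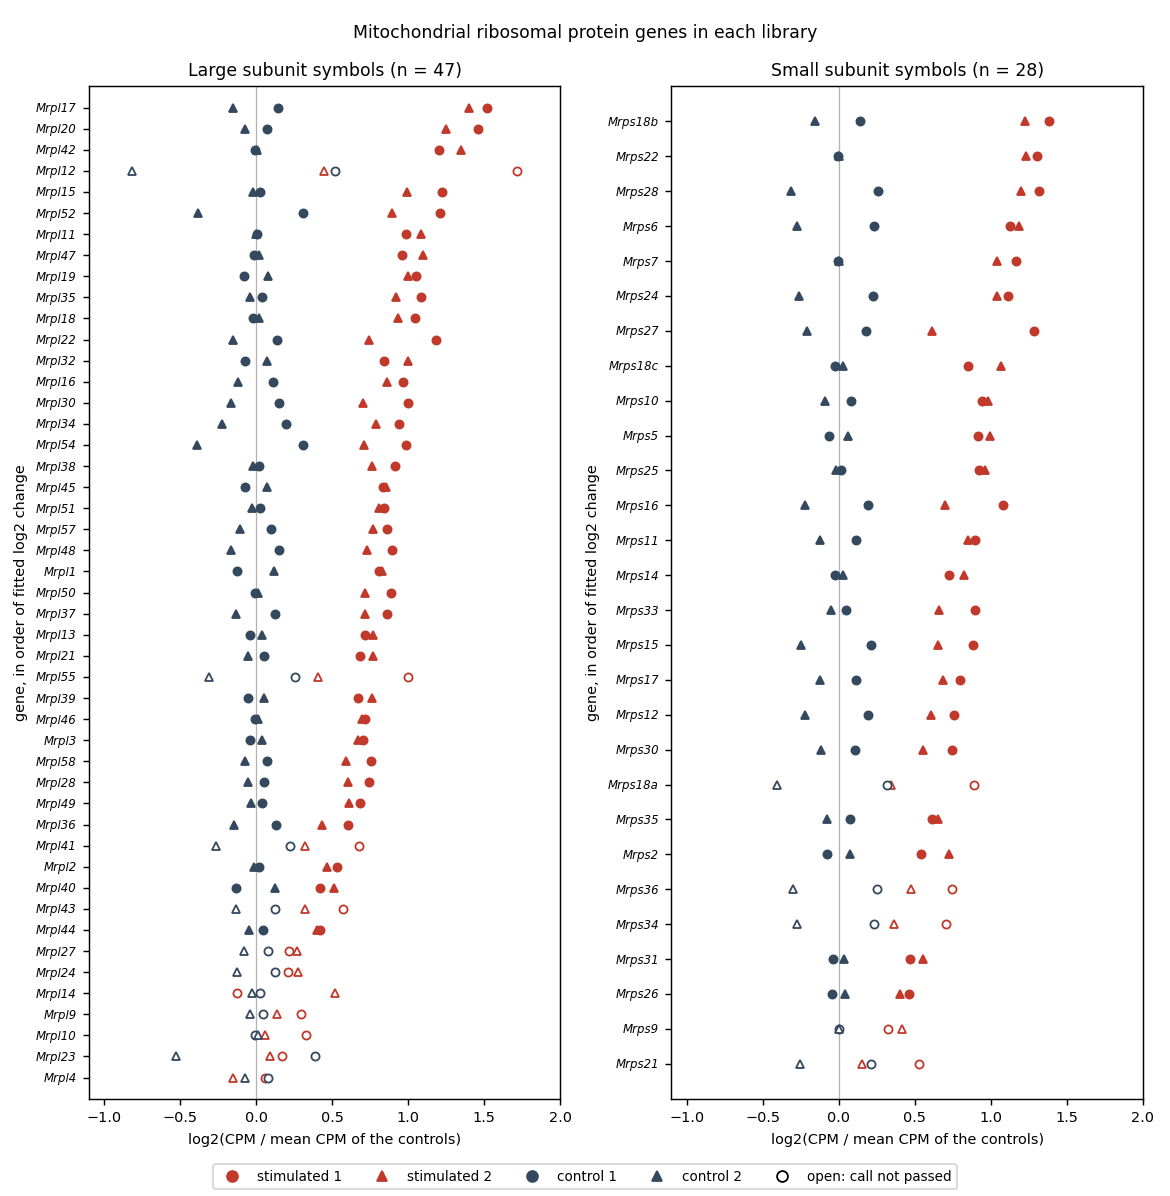
Level of each of the 75 members in the 4 libraries, as log2 of CPM over the mean CPM of the 2 controls, with large subunit symbols on the left and small subunit symbols on the right, in order of the fitted change. Stimulated libraries are red and control libraries dark blue, circles are library 1 and triangles library 2, and open symbols mark genes that did not pass the test. The red points lie to the right of the blue points for 70 genes.

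Members together took 0.516% of all counts in stimulated 1 (95% Wilson interval 0.513 to 0.519) and 0.504% in stimulated 2 (0.502 to 0.507), against 0.335% in control 1 (0.332 to 0.337) and 0.304% in control 2 (0.302 to 0.306). These intervals cover counting error only, and both stimulated libraries lay above both controls by far more than them. Relative levels of this kind do not tell more RNA per cell from a change in the rest of the RNA, and in bulk samples fewer cells and less RNA per cell cannot be told apart.

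In the large subunit, 36 of 47 members rose and 11 did not pass, with a median change of 0.80. Mrpl17, a protein near the exit of the tunnel through which the new protein leaves (chromosome 7, 105806658 to 105811099, as the count tables give it), had 149 and 137 CPM in stimulated cells, against 57.3 and 46.6 CPM in control cells. Both stimulated libraries stood far above both controls, and its change of 1.46 ± 0.16 was the largest of any member (edgeR adjusted p = 0.000989). Mrpl20, whose bacterial counterpart binds ribosomal RNA early in assembly, had 155 and 134 CPM in stimulated cells, against 59.3 and 53.5 CPM in control cells, a change of 1.36 ± 0.15 (edgeR adjusted p = 0.001). Mrpl42, a protein with no bacterial homologue, had 69.0 and 76.4 CPM in stimulated cells, against 29.9 and 30.2 CPM in control cells. The controls nearly coincided, and Mrpl42 rose by 1.28 ± 0.14 (edgeR adjusted p = 0.00107). Mrpl11, which sits at the base of the stalk that receives translation factors, had 100 and 107 CPM in stimulated cells, against 50.6 and 50.3 CPM in control cells. Mrpl11 rose by 1.04 ± 0.13 and Mrpl15, a homologue of bacterial L15, by 1.11 ± 0.15 (edgeR adjusted p = 0.00178 and 0.00201). In these 5 genes no stimulated library came near a control.

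Further members of the large subunit have roles of their own. Mrpl45, which helps to hold the ribosome at the inner membrane, had 93.5 and 94.8 CPM in stimulated cells, against 49.9 and 55.1 CPM in control cells, and rose by 0.84 ± 0.14 (edgeR adjusted p = 0.00411). Mrpl18, a homologue of the bacterial protein L18 that binds an rRNA in the central protuberance, rose by 0.99 ± 0.13 (edgeR adjusted p = 0.00214). Mrpl58, a peptidyl-tRNA hydrolase built into the ribosome that frees stalled chains, had 54.2 and 48.2 CPM in stimulated cells, against 33.7 and 30.5 CPM in control cells. Mrpl58 rose by 0.67 ± 0.15 (edgeR adjusted p = 0.0132), a call lost without control 2 (0.0520) and without stimulated 1 (0.0810). Mrpl44, a protein with a ribonuclease-like fold, was the call nearest the threshold, with 73.2 and 72.1 CPM in stimulated cells, against 56.4 and 52.9 CPM in control cells, and a change of 0.41 ± 0.13 (edgeR adjusted p = 0.0494). That call ended with each library left out (0.113 to 0.202) and under 6 other settings (0.0502 to 0.0960). The libraries of Mrpl44 did not overlap between the groups. Mrpl36 and Mrpl40, at changes of 0.52 ± 0.17 and 0.47 ± 0.15, were called almost as narrowly (edgeR adjusted p = 0.0478 and 0.0462). Mrpl36 lost its call without stimulated 1 (0.221), stimulated 2 (0.0678) or control 2 (0.212), and Mrpl40 without stimulated 1 (0.103), stimulated 2 (0.148) or control 1 (0.228). With all libraries kept, Mrpl36 did not pass under 6 other settings (0.0504 to 0.0893) nor Mrpl40 under 4 (0.0513 to 0.136).

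Within the large subunit, 20 of 29 proteins with a bacterial homologue rose (median change 0.81), and 17 of 20 classed as without one (median 0.75). Mrps30 and Mrps18a are counted among the latter because their proteins lie in the large subunit, although the protein of Mrps18a is S18-like. By position, 2 of 4 proteins of the stalk and its base rose (Mrpl11 and Mrpl54, with Mrpl10 and Mrpl12 not passing), 4 of 6 around the tunnel exit (Mrpl17, Mrpl22, Mrpl45 and Mrpl47) and 8 of 10 in the central protuberance, the knob that faces the small subunit. Mrpl47, beside the tunnel exit, had 37.3 and 41.1 CPM in stimulated cells, against 19 and 19.4 CPM in control cells, and rose by 1.03 ± 0.15 (edgeR adjusted p = 0.00268). The call of Mrpl54 ended without stimulated 1 (adjusted p 0.132), without control 2 (0.0864) and with total count or upper quartile scaling (0.0676 and 0.0566). That of Mrpl22 ended without stimulated 1 (0.0945) and without control 2 (0.0620). These shares rest on few genes, and the differences between positions were not tested.

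The 11 large subunit genes that did not pass were not alike. Mrpl4, a protein that lines the tunnel in bacteria, had 66.5 and 57.5 CPM in stimulated cells, against 67.2 and 60.5 CPM in control cells, and its change of -0.04 ± 0.15 was the only one below 0 (edgeR adjusted p = 0.849). The groups overlapped for Mrpl4, an abundant member. Mrpl10, at the base of the stalk, had 105 and 87.2 CPM in stimulated cells, against 83.3 and 84.5 CPM in control cells (change 0.19 ± 0.15, edgeR adjusted p = 0.344). Mrpl43, a protein without a bacterial homologue, had 80.4 and 67.6 CPM in stimulated cells, against 58.9 and 49.2 CPM in control cells, a change of 0.45 ± 0.16 that missed the threshold (0.0680) and passed it without a low-count filter (0.0257). Mrpl23, the least abundant member, had 28 and 24 counts in stimulated cells, against 39 and 20 in control cells, so that its change of 0.13 ± 0.42 is poorly determined (edgeR adjusted p = 0.841).

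Mrpl12, the flexible stalk protein that is also known to bind the mitochondrial RNA polymerase, was chosen after its values were seen, because its libraries differ within each group. It had 120 and 50 CPM in stimulated cells, against 52.5 and 20.8 CPM in control cells. The libraries titled rep1 were the higher of each group, and stimulated 2 lay below control 1, so the groups overlapped. Its change was 1.21 ± 0.72 (edgeR adjusted p = 0.288), while stimulated over control was 1.19 between the rep1 libraries and 1.27 between the unnumbered ones. Of the rest, Mrpl9, Mrpl14, Mrpl24 and Mrpl27 had changes of 0.21 to 0.24, and Mrpl41 and Mrpl55 of 0.51 and 0.73. Mrpl41 and Mrpl55 passed without control 1 (0.0303 and 0.0305) and without a low-count filter (0.0152 and 0.00345), and Mrpl55 also without stimulated 2 (0.0283).

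In the small subunit, 23 of 28 members rose and 5 did not pass, with a median change of 0.78. Mrps22, a protein found only in mitochondrial ribosomes (chromosome 9, 98588730 to 98601660), had 84.0 and 79.8 CPM in stimulated cells, against 33.9 and 34.1 CPM in control cells. The libraries of each group almost coincided, and Mrps22 had the smallest p of all members, with a change of 1.27 ± 0.13 (edgeR adjusted p = 0.000947). Mrps7, a protein of the head of the subunit, had 185 and 170 CPM in stimulated cells, against 82.4 and 82.8 CPM in control cells, a change of 1.10 ± 0.13 (edgeR adjusted p = 0.00151). Mrps5, a homologue of bacterial S5, a protein known there for its part in decoding accuracy, had 92.8 and 98.1 CPM in stimulated cells, against 47.1 and 51.4 CPM in control cells, and rose by 0.95 ± 0.14 (edgeR adjusted p = 0.00266). Mrps25, a protein without a bacterial homologue, rose by 0.94 ± 0.13 (edgeR adjusted p = 0.00242), and 53.7% of its exon bases are shared with Nr2c2. For each of these 4 genes the lower stimulated library was well above the higher control.

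By origin, 14 of 16 small subunit proteins with a bacterial homologue rose (median change 0.89) and 8 of 9 classed as without one (median 0.78). The latter include Mrps18b, whose protein is S18-like but does not take the bacterial place. Mrps12, a homologue of the bacterial decoding-centre protein S12, had 71.1 and 64.0 CPM in stimulated cells, against 48 and 36 CPM in control cells, a change of 0.68 ± 0.18 (edgeR adjusted p = 0.0243). That call ended without control 2 (0.0961) and without stimulated 1 (0.0960). Mrps33, a protein without a bacterial homologue, had 10.8 and 9.15 CPM in stimulated cells, against 6.01 and 5.60 CPM in control cells, and rose by 0.78 ± 0.22 (edgeR adjusted p = 0.0309), a call lost without control 1 (0.0786), control 2 (0.111) or stimulated 1 (0.150). Mrps9 and Mrps21, both with bacterial homologues, did not pass. Mrps9 had 94.6 and 101 CPM in stimulated cells, against 75.7 and 75.7 CPM in control cells, with groups apart and a change of 0.37 ± 0.13 (edgeR adjusted p = 0.0637), and it passed with DESeq2 (0.0421) and with the length trend removed (0.0288). Mrps21 had 80.8 and 62.3 CPM in stimulated cells, against 65.1 and 47.1 CPM in control cells, with overlapping groups and a change of 0.35 ± 0.21 (edgeR adjusted p = 0.235).

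Mrps28, whose product takes the place of bacterial S1, had 46.4 and 42.9 CPM in stimulated cells, against 22.3 and 15 CPM in control cells, and rose by 1.26 ± 0.21 (edgeR adjusted p = 0.00512). Mrps6 and Mrps24, homologues of bacterial S6 and S3, rose by 1.15 ± 0.23 and 1.08 ± 0.19 (edgeR adjusted p = 0.00846 and 0.00548). Mrps27, a pentatricopeptide repeat protein that binds RNA, had 25.7 and 16.2 CPM in stimulated cells, against 12 and 9.15 CPM in control cells. The stimulated libraries of Mrps27 lay far apart but both above the controls, and its change of 0.99 ± 0.27 (edgeR adjusted p = 0.0289) lost its call without stimulated 1 (0.137) and without control 2 (0.0858). The smallest changes that passed in the small subunit were those of Mrps26 and Mrps31, neither with a bacterial homologue, at 0.43 ± 0.13 and 0.51 ± 0.14 (edgeR adjusted p = 0.0407 and 0.0308). Both calls ended with each library left out, at 0.0977 to 0.175 for Mrps26 and 0.0771 to 0.134 for Mrps31. They ended with total count scaling too (0.0727 and 0.0630).

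Mammals carry 3 genes for S18-like proteins, of which only the product of Mrps18c takes the bacterial place. Mrps18b had 33.7 and 30.1 CPM in stimulated cells, against 14.2 and 11.6 CPM in control cells, and rose by 1.31 ± 0.17 (edgeR adjusted p = 0.00218); 30.5% of its exon bases are shared with Gm16279. Mrps18c had 51.4 and 59.8 CPM in stimulated cells, against 28 and 29.0 CPM in control cells, and rose by 0.96 ± 0.15 (edgeR adjusted p = 0.00359). Mrps18a, whose protein lies in the large subunit, had 75.1 and 51.4 CPM in stimulated cells, against 50.5 and 30.6 CPM in control cells. For Mrps18a stimulated 2 lay just above control 1, and the change of 0.64 ± 0.30 did not pass (edgeR adjusted p = 0.147), though it passed without control 1 (0.0162, change 1.05) and without a low-count filter (0.000849). No test of the difference between the 3 genes was made.

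For 2 further genes the symbol does not give the place of the protein. Mrps30, a large subunit protein in spite of its name, had 27.8 and 24.4 CPM in stimulated cells, against 17.9 and 15.3 CPM in control cells, and rose by 0.66 ± 0.17 (edgeR adjusted p = 0.0238), a call lost without control 2 (0.100) and without stimulated 1 (0.128). It shares 37.8% of its exon bases with B430218F22Rik. Mrps36, now known as a subunit of the oxoglutarate dehydrogenase complex and not of the ribosome, had 84 and 63 counts in stimulated cells, against 71 and 47 counts in control cells, a change of 0.62 ± 0.31 (edgeR adjusted p = 0.168). The lower stimulated library of Mrps36 stood below the higher control in counts and, once scaled for depth, above it (2.76 CPM in stimulated 2, against 2.36 CPM in control 1).

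The subunits moved by nearly equal amounts. By symbol, 76.6% of the large and 82.1% of the small subunit genes rose, and their median changes of 0.80 and 0.78 differed by -0.02, small minus large. With the genes sorted by the place of the protein, 75.5% of 49 large and 88.0% of 25 small subunit genes rose and the difference of the medians was 0.08, so its sign depends on that choice. By symbol it was also positive without control 1 (0.14), control 2 (0.01) or stimulated 2 (0.05), and with a count minimum of 1000 (0.02). Fewer genes of both subunits, and fewer of all tested genes, rose without stimulated 1 and without control 2. The medians were then 0.71 (large) and 0.69 (small) without stimulated 1, and 0.71 and 0.72 without control 2. Summed over genes by symbol, small over large subunit CPM was 0.475 and 0.486 in stimulated cells, against 0.474 and 0.455 in control cells. Stimulated 1 and control 1 were nearly level. With genes sorted by the place of the protein, the ratio was 0.434 and 0.453 in stimulated cells, against 0.429 and 0.422 in control cells, where the stimulated libraries lay further apart than the controls and both above them. In RPKM, the CPM per kilobase of listed gene length, the ratio by symbol was 0.398 and 0.399 in stimulated cells, against 0.385 and 0.363 in control cells. An exact permutation test on 2 against 2 libraries cannot give a p below 0.333, so none was run on these ratios.

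Per kilobase, the members spanned a wide range, with the highest member at 293 and 248 times the lowest in stimulated libraries, against 134 and 199 times in control libraries. The lowest was Mrpl23, whose few counts leave these ratios uncertain. The median member stood at 32.7 and 31.6 RPKM in stimulated cells, against 18.8 and 16.7 RPKM in control cells. Mrpl52, a protein of the central protuberance, was the most abundant, at 183 and 147 RPKM in stimulated cells, against 97.5 and 60.4 RPKM in control cells. It rose by 1.06 ± 0.25 (edgeR adjusted p = 0.0188), a call lost without stimulated 1 (0.0656). Mrpl28, a homologue of bacterial L28, followed at 132 and 121 RPKM in stimulated cells, against 82.7 and 76.6 RPKM in control cells, with a change of 0.67 ± 0.14 (edgeR adjusted p = 0.00968). Mrpl34, a homologue of bacterial L34, had 121 and 109 RPKM in stimulated cells, against 72.4 and 54.1 RPKM in control cells (change 0.86 ± 0.18, edgeR adjusted p = 0.0105). The 2 control values of Mrpl52 enclosed both of Mrpl28 and the higher of Mrpl34, so the order of these genes was not set beyond the spread of their libraries there.

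In the small subunit the most abundant per kilobase was Mrps16, a homologue of bacterial S16, at 115 and 88.2 RPKM in stimulated cells, against 62.3 and 46.6 RPKM in control cells. It rose by 0.90 ± 0.21 (edgeR adjusted p = 0.0155), a call lost without stimulated 1 (0.0663). Mrps7 and Mrps12 came next. At the low end, Mrpl48, a protein of the central protuberance, had 3.9 and 3.49 RPKM in stimulated cells, against 2.33 and 1.89 RPKM in control cells, and rose by 0.81 ± 0.18 (edgeR adjusted p = 0.0149), which ended without control 2 (0.0619) and without stimulated 1 (0.0675). The processed pseudogene Mrpl48-ps had 79 and 51 counts in stimulated cells, against 65 and 62 in control cells, so reads may be split between the copies. Mrps10, a homologue of bacterial S10, had 4.82 and 4.96 RPKM in stimulated cells, against 2.66 and 2.37 RPKM in control cells, and rose by 0.96 ± 0.15 (edgeR adjusted p = 0.00361). The listed length covers all annotated exons of a gene, which lowers the RPKM of genes with many isoforms.

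**Figure D2:**
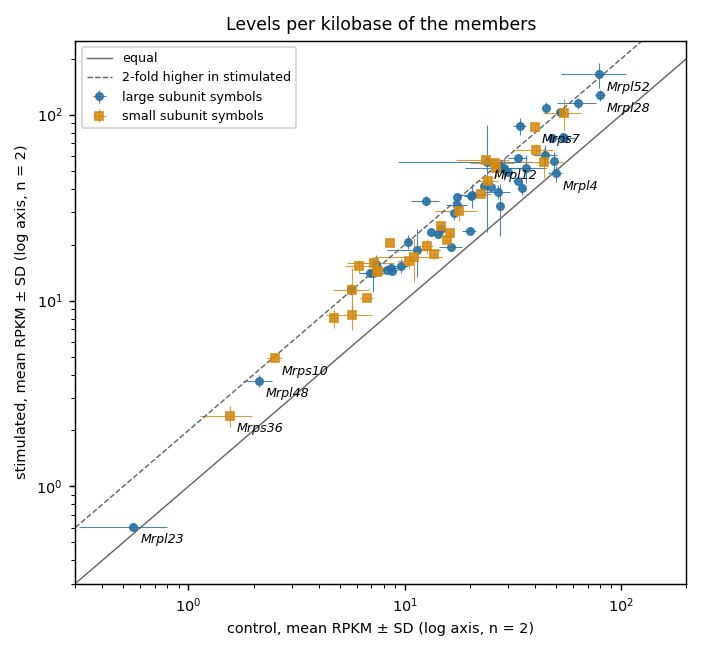
Mean RPKM of each member in stimulated cells (vertical) against control cells (horizontal), both on log axes, with bars of 1 SD from 2 libraries per group. Large subunit symbols are blue circles and small subunit symbols orange squares. Most points lie between the line of equality and the dashed line of a 2-fold higher level, with Mrpl52 at the top, Mrpl4 on the line of equality and Mrpl23 at the bottom.

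Just inside the count minimum lay Mrpl23 with 111 counts over the 4 libraries and Mrps36 with 265. Just outside lay Mrps23 with 59 counts (22 and 24 in stimulated cells, against 3 and 10 in control cells) and Mrpl53 with 39 (6 and 9, against 14 and 10). Mrps23, not counted among the members, rose by 2.10 (edgeR adjusted p = 0.0299), a call lost with DESeq2 (0.0655). On so few counts its change was 1.47 without control 1 and 3.21 without control 2. Of the exon bases of Mrpl53, 87.1% are shared with Gm42688. Mrpl33, a large subunit gene of the annotation, was not analysed here.

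The median change of the members lay between those of cytosolic ribosomal protein genes and of nuclear respiratory chain genes. Of 82 tested cytosolic ribosomal protein genes, 61 rose and 1 fell (Rpl39l, named after its value was seen), with a median change of 1.02. Of 77 tested nuclear genes for respiratory chain and ATP synthase subunits, 33 rose and none fell by edgeR (1 lower at an unadjusted p under 0.05, 1 by DESeq2 and 0 by limma-voom), with a median of 0.57. That number was 17 without stimulated 1, 17 without control 2, 50 without control 1 and 53 without a low-count filter. Of the 13 mRNAs encoded in mitochondrial DNA, 7 had counts, and none of these passed (none at an unadjusted p under 0.05 either, nor by DESeq2 or limma-voom). The other 6, mt-Co2, mt-Atp8, mt-Atp6, mt-Co3, mt-Nd3 and mt-Nd4l, were listed at 0 in every library. The part of read mapping and counting in these zeros was not tested, so they are not read as absent expression. The median of the 7 was 0.11, and all 7 overlapped between the groups. Their calls turned on the control kept: without control 1, mt-Nd1, mt-Nd2, mt-Nd4 and mt-Cytb were called higher (changes 1.10, 0.94, 0.77 and 1.03), and without control 2 mt-Nd4 was called lower (-0.81). Without a low-count filter mt-Nd1 passed (0.0150). mt-Co1, a cytochrome oxidase subunit, had 2446 and 2381 CPM in stimulated cells, against 3392 and 2053 CPM in control cells (change -0.17 ± 0.25, edgeR adjusted p = 0.626). The rRNA of the large subunit, mt-Rnr2, had 504 and 863 CPM in stimulated cells, against 1043 and 592 CPM in control cells (change -0.26 ± 0.37, edgeR adjusted p = 0.629), in libraries depleted of ribosomal RNA, whose part in these levels was not tested. The rRNA of the small subunit, mt-Rnr1, had 16.4 and 123 CPM in stimulated cells, against 38.4 and 51.3 CPM in control cells. The 2 stimulated libraries lay on either side of the controls, so its change of 0.63 did not pass (edgeR adjusted p = 0.727) and was called at 1.45 without stimulated 1 and at -1.43 without stimulated 2. Differences between these families were not tested.

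**Figure D3:**
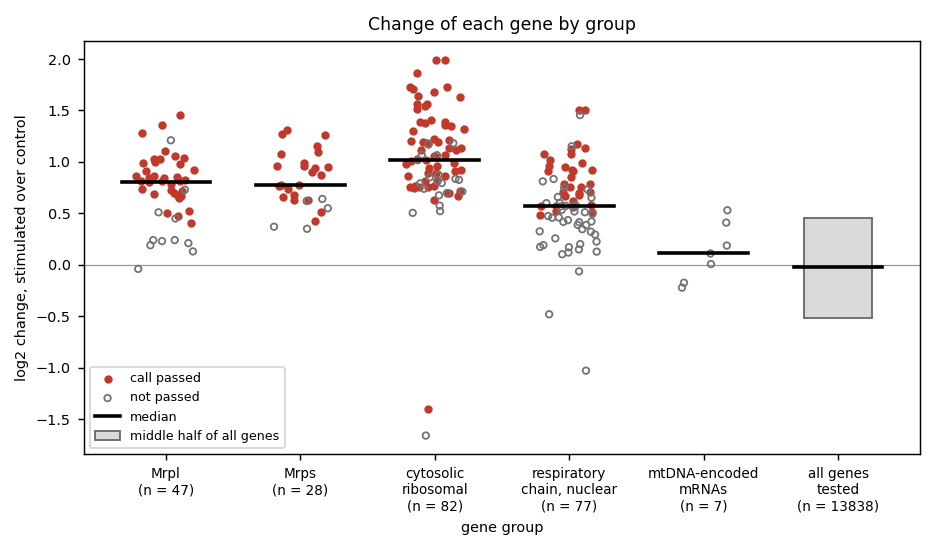
Log2 change of stimulated over control for each tested gene of 5 groups, red where the call passed and open grey where it did not, with black bars at the medians, and for all 13838 tested genes a grey box between the quartiles with its median. The medians are 0.80 for Mrpl, 0.78 for Mrps, 1.02 for cytosolic ribosomal, 0.57 for nuclear respiratory chain and 0.11 for mitochondrially encoded mRNAs, against -0.02 for all genes.

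Of 5 ribosomal proteins named otherwise, 3 rose. Chchd1, of the small subunit, had 103 and 102 CPM in stimulated cells, against 45.2 and 30.9 CPM in control cells, and rose by 1.43 ± 0.20 (edgeR adjusted p = 0.00262). Gadd45gip1, of the large subunit, rose by 1.09 ± 0.14 and Ptcd3, an RNA-binding protein of the small subunit, by 0.96 ± 0.14 (edgeR adjusted p = 0.00170 and 0.00269). Aurkaip1, of the small subunit, had 113 and 95.3 CPM in stimulated cells, against 83.6 and 70.4 CPM in control cells (change 0.44 ± 0.16, edgeR adjusted p = 0.0716), and passed without a low-count filter (0.0337). The fifth, Dap3, a GTP-binding small subunit protein named here after its values were seen, had 40 and 33.8 CPM in stimulated cells, against 48.6 and 49.3 CPM in control cells. Its stimulated libraries both lay below the controls, with a change of -0.41 ± 0.15 that did not pass (edgeR adjusted p = 0.0736). Dap3 was called lower with total count scaling (0.0344, change -0.50) and with upper quartile scaling (0.0466, change -0.46).

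Genes that work with the ribosome were more mixed. Of 12 translation factors, 4 rose and none fell (none lower at an unadjusted p under 0.05, by DESeq2 or by limma-voom), with a median of 0.50. Gfm1, the elongation factor that moves the ribosome along the mRNA, had 237 and 227 CPM in stimulated cells, against 111 and 119 CPM in control cells, and rose by 1.01 ± 0.13 (edgeR adjusted p = 0.00215). Tufm, which brings aminoacyl-tRNA to the ribosome, rose by 1.04 ± 0.18 and its exchange factor Tsfm by 0.67 ± 0.13 (edgeR adjusted p = 0.00531 and 0.00867). The initiation factor Mtif2 had 70.3 and 73.6 CPM in stimulated cells, against 61.9 and 73.0 CPM in control cells, with a change of 0.09 ± 0.14 (edgeR adjusted p = 0.652).

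Of 26 assembly factors and rRNA-modifying enzymes, 5 rose and 2 fell, with a median of 0.21. Only 1 rose without stimulated 1, 2 without control 2, 3 without control 1 and 3 with total count scaling, and 1 fell without stimulated 2. Nsun4, an rRNA methyltransferase known to act in joining the subunits, had 67.0 and 56.7 CPM in stimulated cells, against 20.7 and 21.9 CPM in control cells, and rose by 1.54 ± 0.15 (edgeR adjusted p = 0.000811). Ddx28, an RNA helicase needed for large subunit assembly, went the other way, with 45.9 and 33.9 CPM in stimulated cells, against 78.6 and 76.5 CPM in control cells, a change of -0.96 ± 0.18 (edgeR adjusted p = 0.00690). Mrm1, which methylates the large rRNA, changed by -0.74 ± 0.15 (edgeR adjusted p = 0.00846), a call lost without stimulated 2 (0.0549). Mpv17l2, an assembly factor that did not pass, changed by -0.25 ± 0.14 (edgeR adjusted p = 0.207). With 19.2% higher and 7.69% lower, this list was near the 17.5% higher of all genes and below their 18.3% lower.

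Of 17 mitochondrial aminoacyl-tRNA synthetase genes, 5 rose and none fell (1 lower at an unadjusted p under 0.05, none by DESeq2 or limma-voom), with a median of 0.01. Mars2, Rars2 and Yars2, which charge methionine, arginine and tyrosine tRNAs, rose by 1.14 ± 0.15, 0.84 ± 0.15 and 1.17 ± 0.21 (edgeR adjusted p = 0.00186, 0.00613 and 0.00636), and Cars2, for cysteine, changed by 0.37 ± 0.17 without passing (0.125). Of 10 genes that copy mitochondrial DNA or express it, 3 rose and 1 fell, with a median of 0.16, and 1 rose with any single library left out. The gene that fell was Polg, the catalytic subunit of the mitochondrial DNA polymerase, with 54.2 and 38.8 CPM in stimulated cells, against 131 and 125 CPM in control cells, a change of -1.46 ± 0.19 (edgeR adjusted p = 0.00182). Slirp, which stabilises mitochondrial mRNAs with Lrpprc, rose by 0.85 ± 0.16 (edgeR adjusted p = 0.00680). Lrpprc itself, named after its values were seen, rose by 0.45 ± 0.14 (edgeR adjusted p = 0.0391), which ended with each library left out (0.0737 to 0.190) and with total count scaling (0.0619). The transcription elongation factor Tefm rose by 0.73 ± 0.19 (edgeR adjusted p = 0.0255), a call lost without any 1 of the libraries (0.0548 to 0.117). Tfam, which packages mitochondrial DNA, had overlapping groups and a change of -0.15 ± 0.14 (edgeR adjusted p = 0.457).

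Of 19 genes for the import of proteins into mitochondria, 10 rose and none fell (none lower at an unadjusted p under 0.05, by DESeq2 or by limma-voom), with a median of 0.53. Hspa9, the chaperone that pulls proteins into the matrix, had 789 and 714 CPM in stimulated cells, against 269 and 275 CPM in control cells, and rose by 1.47 ± 0.15 (edgeR adjusted p = 0.000826). Timm17a of the inner membrane channel rose by 1.38 ± 0.13 and Tomm5 of the outer membrane complex by 1.52 ± 0.20 (edgeR adjusted p = 0.000696 and 0.00196). Tomm7, also of that complex, had 99.8 and 74.5 CPM in stimulated cells, against 90.5 and 49.6 CPM in control cells, with overlapping groups and a change of 0.32 ± 0.32 (edgeR adjusted p = 0.485), and it passed without control 1 (0.0232, change 0.81).

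**Figure D4:**
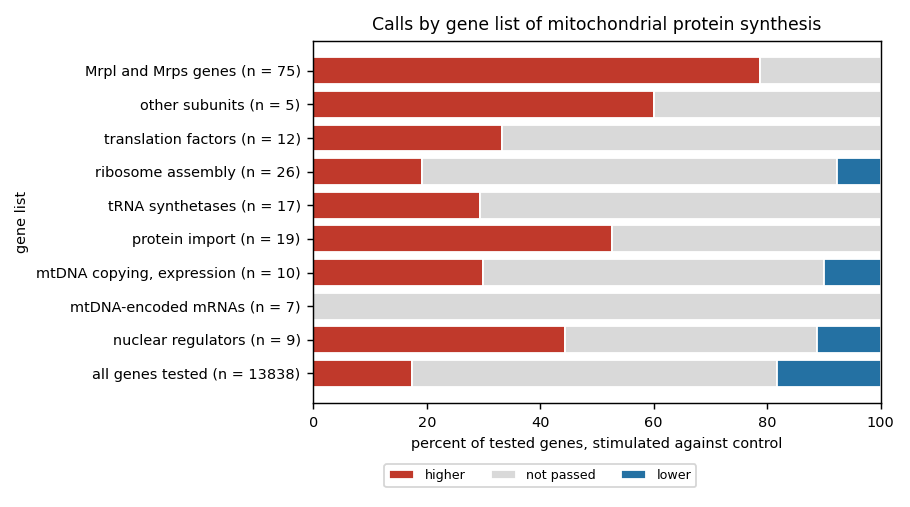
Percent of the tested genes of each list that were higher (red), lower (blue) or did not pass (grey) in stimulated against control cells, at an edgeR adjusted p under 0.05. The 75 Mrpl and Mrps genes have 78.7% higher and none lower, against 17.5% higher and 18.3% lower of all 13838 tested genes.

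Among 9 transcription factors and coactivators known to act on nuclear genes for mitochondrial proteins, 4 rose and 1 fell. The number that rose was 1 without stimulated 1 and 2 without control 1, and the number that fell was 2 without control 2 and without a low-count filter. Myc, a driver of ribosome production and growth, had 50.2 and 47.6 CPM in stimulated cells, against 20 and 12.6 CPM in control cells, and rose by 1.58 ± 0.23 (edgeR adjusted p = 0.00311). Pprc1, a coactivator of the PGC-1 family that is induced by growth signals, had 79.9 and 63.7 CPM in stimulated cells, against 34.2 and 18.8 CPM in control cells, and rose by 1.44 ± 0.30 (edgeR adjusted p = 0.0157), a call lost without stimulated 1 (0.0582). Its relative Ppargc1a was low, with 23 and 15 counts in stimulated cells, against 85 and 91 counts in control cells, a change of -1.91 ± 0.32 (edgeR adjusted p = 0.00510). Ppargc1b had 25 and 20 counts in stimulated cells, against 96 and 39 counts in control cells, and its change of -1.27 ± 0.47 did not pass (edgeR adjusted p = 0.0771), though it passed without control 2 (0.00978) and without a low-count filter (0.00683).

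Nrf1, the factor for which the palindrome is named, had 129 and 113 CPM in stimulated cells, against 84.6 and 83.5 CPM in control cells. It rose by 0.53 ± 0.14 (edgeR adjusted p = 0.0242), a call lost without control 1 (0.0695), control 2 (0.0774) or stimulated 1 (0.141). Gabpb1, a subunit of the ETS complex GABP, rose by 0.54 ± 0.16 (edgeR adjusted p = 0.0356), which ended without control 1 (0.152), stimulated 1 (0.0523) or stimulated 2 (0.156) and with total count or upper quartile scaling (0.0800 and 0.0542). Its DNA-binding partner Gabpa changed by -0.17 ± 0.17, Yy1 by -0.17 ± 0.37 and Esrra, a nuclear receptor, by -0.21 ± 0.18, and all 3 had overlapping groups (edgeR adjusted p = 0.478, 0.762 and 0.420). These are mRNA levels of the factors, and their binding was not measured here.

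The members are spread over 17 chromosomes, with 10 on chromosome 11 and 8 on chromosome 17. A protein-coding gene on the opposite strand starts within 500 bp of the start of 25 members, 33.3%, against 14.7% of 11850 tested protein-coding genes. Of 23 such neighbours that were tested and are not members themselves, 5 rose (Mtbp, Psma2, Fau, Ptcd2 and Zfp661), 2 fell (Klc4 and Wdfy1) and 16 did not pass. The share that rose was near the 17.5% of all tested genes, and the share that fell was below their 18.3%. The median change of these neighbours was 0.15, against 0.79 for the members. Mrpl32 and Psma2, a proteasome subunit gene 75 bp away, both rose, by 0.92 ± 0.15 and 0.89 ± 0.14 (edgeR adjusted p = 0.00454 and 0.00403). Mrpl2 rose by 0.50 ± 0.13 (edgeR adjusted p = 0.0244) and Klc4, a kinesin light chain gene 207 bp away, changed by -1.08 ± 0.15 (edgeR adjusted p = 0.00229). The call of Mrpl2 ended with each library left out (0.0644 to 0.123) and with the length trend removed (0.0632). Mrpl46 and Mrps11, 412 bp apart, are each other's neighbour and rose by 0.70 ± 0.13 and 0.87 ± 0.14. Neighbours were named after their values were seen.

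The listed length, that of the exons, had a median of 1848 bp in members, against 3398 bp in all tested genes. The tested genes were split by listed length into 5 classes of nearly equal size. In the shortest class, up to 1663 bp, 32 members had a median change of 0.72, against 0.17 for all genes of the class. In the longest class, from 6014 bp, 5 members had a median of 0.94, against -0.14 for all genes there. With the trend of level on length removed in each library, 55 members rose. Exons of 50 members share no base with another listed gene, and 40 of these rose, as did 19 of the 25 members that share some. At least 25% of the exon bases are shared by Mrpl19, Mrpl24, Mrps18b, Mrps25, Mrps30 and Mrps34, of which 4 rose. Mrps34, which did not pass (change 0.55 ± 0.24, edgeR adjusted p = 0.112), shares 77.8% with Nme3 and passed without control 1 (0.0461) and without a low-count filter (0.0450).

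Libraries whose titles match differed from the others in the same way for many members. Stimulated 1 was above stimulated 2 for 52 members and control 1 above control 2 for 52, with 43 members in both counts, 57.3% of the members, against 32.7% of all tested genes. Within each kind of title, stimulated 1 was above control 1 for 72 members with a median of 0.74, and stimulated 2 above control 2 for 74 with a median of 0.81. Both counts include the 70 members whose stimulated libraries both lay above both controls, so they are no separate support.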

How the data were processed

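Of 4 libraries, 2 were stimulated and 2 control. Each count deposited by the authors is a whole number of reads for a gene, per the file headers. The CPM deposited by the authors is the count scaled to the library's sum, and the deposited RPKM is that CPM per kilobase of listed length. Both were checked and not used further. The submitters' processing notes name STAR, Subread and featureCounts without versions. The genome build and the strand setting are not stated in the labels or headers, so genes that overlap are uncertain.

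Identifiers were matched to GENCODE M21 (40340 of 41388 matched, 99.8% of them overlapping the annotated gene). Counts were fitted with edgeR 4.0.16 (limma 3.58.1, R 4.3.3): filterByExpr, TMM, robust quasi-likelihood test, treatment as the only term, Benjamini-Hochberg adjustment over 13838 genes, threshold 0.05. SE is the absolute log2 change over the square root of F, an approximation. RPKM in the text are TMM-scaled CPM per kilobase. The common biological coefficient of variation was 18.4%, and library differences within groups exceeded counting error (chi-square per degree of freedom 38.5 stimulated, 64.4 control). The fit was tested on simulated data with 200 changed genes, far fewer than the 4950 called in these data. That test therefore does not cover change of this extent. Alternatives were other scalings and filters, DESeq2 1.42.0, limma-voom, non-robust estimation, a length trend removed (loess span 0.3), a block for the kind of title, other count minimums, and each library left out.

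Members and lists were chosen with earlier results of these data known. Named by rule were, for each subunit, the 5 smallest adjusted p that passed, the 3 most and 3 least abundant per kilobase, the 2 largest changes in each direction and the 2 most abundant that did not pass, with Mrps30, Mrps18a and Mrps36. The rule also took, of each context list, the 3 members with smallest adjusted p and the most abundant that missed the threshold, and every regulator. Other members were named after their values were seen, for their place, promoter or neighbour.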

Additional observations from a re-analysis of the deposited data

How the results depend on the processing

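In all alternatives run, no member was lower at an adjusted p under 0.05. Of the 59 members that rose, 40 passed in all 14 other fits and 52 in the 10 that kept 4 libraries. Members that rose numbered 53 with total count scaling, 54 with upper quartile scaling, 59 with DESeq2 size factors, 60 with DESeq2, 57 with limma-voom, 63 without a low-count filter, 58 with a filter of 1 CPM, 56 without robust estimation and 55 with the length trend removed. Of all genes tested, 2417 rose and 2533 fell, against 1935 and 2795 with total count scaling, 2160 and 2701 with upper quartile scaling and 2511 and 2467 with DESeq2 size factors. These numbers were 2623 and 2427 with DESeq2, 2404 and 2473 with limma-voom and 2376 and 2476 without robust estimation. Without a low-count filter they were 2983 and 3037, with a filter of 1 CPM 2321 and 2420, and with the length trend removed 2600 and 2421. How many of all genes kept their call in every fit is not given here. With 1 library left out, 41 to 56 members rose, 27 to 35 of the large and 14 to 21 of the small subunit, with medians of 0.71 to 0.86 (large) and 0.69 to 0.93 (small), and 1593 to 2001 of all genes rose and 1665 to 2035 fell. With total count scaling the large subunit median was 0.71. The difference of the medians, small minus large, was -0.02, over a range of -0.02 to 0.14 with 1 library left out. It changed sign without stimulated 2 (0.05), control 1 (0.14) or control 2 (0.01). It also changed sign with a count minimum of 1000 (0.02) and by place in the ribosome (0.08). The cause was not tested. Between the groups, library titles share only the number 1, and whether libraries with like titles were prepared together is not stated. With the kind of title as a replicate block, 3986 of all genes rose and 4000 fell, and 68 members rose, Mrpl12 among them (change 1.23), while Dap3 was called lower (-0.41). Deviations of libraries with like titles correlated at 0.551 over all tested genes and at 0.719 over the members. With 2 libraries a group, a fit without 1 of them takes the spread of the lone library from the other group. Low counts limit Mrpl23 and Mrps36.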
